A study of Mus musculus with 9 samples.

Results

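C-type lectin receptors of myeloid cells were followed at the mRNA level in mouse neutrophils cultured in gels of 3 stiffnesses. The 9 genes described are Clec7a, Clec4d, Clec4e, Clec4n, Clec4a2, Clec5a, Clec12a, Cd302 and Mrc1, taken as the rows of the count files whose identifier is exactly that symbol. They are 9 of 22173 genes in the files, and all 9 passed the filter on low counts that left 12094 genes for testing. The cells were wild-type primary neutrophils derived from mouse bone marrow, encapsulated in gelatin methacryloyl (GelMA, a crosslinked gelatin hydrogel) of low (1.5 kPa), middle (2.6 kPa) or high (5.7 kPa) elastic modulus. Culture lasted 2 days, in RPMI with serum from fetal calves. Every group had 3 libraries, numbered 1 to 3, and the low gel served as the control. No library came from cells outside a gel, and the sources used here do not give the age, sex or number of the mice or the purity of the neutrophils.

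C-type lectin receptors are surface proteins with a carbohydrate recognition fold, many of which bind sugars or lipids of fungi, bacteria and dying cells. The activating ones signal through an immunoreceptor tyrosine-based motif, either their own or that of an adaptor such as the Fc receptor gamma chain (Fcer1g) or DAP12 (Tyrobp), to the kinase Syk and then to the CARD9, BCL10 and MALT1 complex, which turns on NF-kB and cytokine genes. The inhibitory ones carry a motif that recruits phosphatases such as SHP-1 (Ptpn6), and others take up cargo. In neutrophils such receptors are known for sensing fungi and mycobacteria and for setting off phagocytosis, the oxidative burst and cytokine release.

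Total counts were 13172879 to 19486546 per library, and a receptor gene had between 547 counts (Cd302, low replicate 1) and 38301 counts (Clec4d, high replicate 1) in a library. The libraries numbered 1 stood apart from those numbered 2 and 3 in every group, and the labels do not say what libraries of the same number share. The summed level of 12 neutrophil markers (S100a8, S100a9, Csf3r and others) was 3602 to 5006 CPM (counts scaled to library size) in the replicate 1 libraries and 16864 to 24854 CPM in the others. The 12 macrophage markers (Gpnmb, Csf1r, Cd68 and others) were also all detected in every library, at a summed 7091 to 8504 CPM in replicate 1 and 5184 to 8740 CPM in replicates 2 and 3. Gpnmb alone, singled out after its values were seen, was at 4562 to 5709 CPM in replicate 1 and 1165 to 3420 CPM in the others. By gel, the macrophage sum was 8495 to 8740 CPM in low, 6139 to 7091 CPM in middle and 5184 to 7567 CPM in high. In the fit with the replicate number described below, 3 of the 12 markers were higher and 6 lower in high than in low. That fit called 6.72% of all tested genes higher and 8.73% lower. The neutrophil sum did not move alike in the 3 replicate numbers. In low, middle and high it was 3602, 4906 and 5006 CPM in replicate 1 and 24854, 19493 and 16864 CPM in replicate 2. In replicate 3 it was 21898, 22327 and 17469 CPM. In the same fit, 1 of the 12 neutrophil markers was higher and 3 lower in high than in low. Of the 6 eosinophil, basophil and mast cell markers 2 were lower and 0 higher, with sums of 38.8 to 65.8 CPM in low and 10.8 to 30.8 CPM in high. The 5 monocyte markers summed to 388 to 686 CPM in replicate 1 and 1278 to 1704 CPM in the others, with 2 called higher and 2 lower in high in that fit. Lymphocyte markers summed to 27.6 to 45.0 CPM in replicate 1 and 77.6 to 155 CPM in the others. Dendritic cell markers summed to 28.0 to 66.9 CPM over all libraries. In that fit 1 of 6 tested dendritic cell markers was lower and 0 higher, and 0 of 5 tested lymphocyte markers were called. In RNA from whole cultures, fewer cells of a type and less RNA per cell cannot be told apart, and the part of cell mixture in the results below was not tested.

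2 fits of the same counts are given. The first compares the groups over all 9 libraries, and the second adds the replicate number as a block, so that each gel is compared with the others within a number. Both used edgeR's quasi-likelihood test, and a gene was called at a Benjamini-Hochberg adjusted p under 0.05 over all 12094 genes. The levels of the libraries are TMM-normalised CPM. Nothing in the labels says that the replicates are separate cultures or animals, so each p-value reflects only how these libraries vary, which may be technical variation.

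The genes lie in 2 neighbourhoods and 3 single places. By RefSeq's gene order on assembly GRCm38.p6, Clec4n, Clec4d and Clec4e follow each other on chromosome 6, and Clec4a2 is separated from Clec4n by Clec4b2. Clec12a and Clec7a are in another part of chromosome 6, with Clec12b beside the former and Clec1a and Olr1 beside the latter. Clec5a is elsewhere on chromosome 6, and Cd302 (beside Ly75) and Mrc1 are on chromosome 2. The RefSeq promoter table of the same assembly held windows for 8 of the 9 genes, and Clec4n was not matched. 250 bases before a start that RefSeq annotates are shown for Cd302 and Clec4e, the 2 genes with the largest rises in high gel, for Clec4d, the most abundant, and for Clec7a, the gene that fell. Clec7a has 2 such windows in the table, and the first is shown, which reaches 6 bases into the gene's RefSeq span. They are written 5′ to 3′ on the gene's strand, with capitals for GAGGAA or its complement TTCCTC, the core bound by the myeloid factor PU.1. The windows are chr2:60284485-60284734 (minus strand) for Cd302, chr6:123289872-123290121 (minus) for Clec4e, chr6:123261857-123262106 (plus) for Clec4d and chr6:129472780-129473029 (minus) for Clec7a, all in GRCm38.p6.
Cd302: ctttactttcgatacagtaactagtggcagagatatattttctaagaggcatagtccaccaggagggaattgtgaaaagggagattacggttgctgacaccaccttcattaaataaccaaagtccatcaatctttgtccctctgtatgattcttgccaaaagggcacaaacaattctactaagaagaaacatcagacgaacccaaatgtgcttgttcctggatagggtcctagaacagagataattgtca
Clec4e: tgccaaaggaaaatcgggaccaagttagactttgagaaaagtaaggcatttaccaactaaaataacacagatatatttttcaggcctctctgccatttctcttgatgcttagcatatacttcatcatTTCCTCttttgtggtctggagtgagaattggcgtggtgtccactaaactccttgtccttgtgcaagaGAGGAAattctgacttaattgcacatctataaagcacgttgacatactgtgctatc
Clec4d: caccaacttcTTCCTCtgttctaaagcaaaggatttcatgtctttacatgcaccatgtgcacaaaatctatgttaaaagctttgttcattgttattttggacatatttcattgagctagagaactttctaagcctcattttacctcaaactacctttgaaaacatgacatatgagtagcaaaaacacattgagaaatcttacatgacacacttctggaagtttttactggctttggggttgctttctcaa
Clec7a: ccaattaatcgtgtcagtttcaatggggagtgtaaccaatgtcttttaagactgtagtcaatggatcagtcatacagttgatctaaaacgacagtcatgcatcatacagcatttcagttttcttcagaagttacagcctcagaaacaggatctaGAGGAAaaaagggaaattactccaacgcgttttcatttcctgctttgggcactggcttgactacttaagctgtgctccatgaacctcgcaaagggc

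GAGGAA was found on either strand in 6 of the 8 windows (Clec7a, Clec4d, Clec4e, Clec5a, Clec12a and Mrc1) and in 23.1% of 27025 mouse promoter windows of the same length. Clec4a2 and Cd302 held none. A C/EBP pattern (TTNNGNAA) was present in 7 of the 8, all but Clec7a, and in 36.9% of all windows. An NF-kB pattern (GGG, then any 5 bases, then CC) was found only in the Mrc1 window of the 8 and in 45.4% of all windows. An AP-1 pattern (TGANTCA) was found only in the Clec12a window and in 6.87% of all, and an interferon response pattern (GAAA, any 2 bases, GAAA) in 0 of the 8 and in 3.04% of all. The Clec12a window lies before an internal start, and all its 250 bases are inside the gene's RefSeq span. All patterns were searched on both strands with overlapping matches counted. A match describes letters in a window and is not a binding site.

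Per kilobase of the deposited exonic length (RPKM, TMM-normalised), the receptor mRNAs spanned a wide range of levels. Clec4d, which encodes MCL, a partner of Mincle, was the most abundant in all 9 libraries at 1232 ± 429 RPKM (SD, n = 9) and ranked 22 among all tested genes by mean RPKM. Clec4e, which encodes Mincle, a receptor for mycobacterial and other glycolipids, was at 438 ± 98.9 RPKM, and Clec4n, which encodes Dectin-2, a receptor for fungal mannans, was at 430 ± 205 RPKM. Clec4e was above Clec4n in 6 libraries, and Clec4n was above Clec4e in the 3 numbered 1, so the order of these neighbours depended on the replicate number. Together the 3 genes made up 78.6% to 91.9% of the summed RPKM of the 9 receptors in a library. Clec7a, which encodes Dectin-1, the receptor for fungal beta-glucan, followed at 120 ± 33.5 RPKM, below Clec4n in all 9 libraries.

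The next genes overlapped in level. Cd302, a transmembrane lectin linked to uptake and cell migration, was at 64.1 ± 26.7 RPKM, Clec5a, a DAP12-coupled receptor, at 52.2 ± 13.3 RPKM, Clec12a, an inhibitory receptor for uric acid crystals, at 49.2 ± 12.1 RPKM and Clec4a2, the inhibitory receptor DCIR, at 43.2 ± 6.66 RPKM. Clec7a exceeded Cd302 in 8 of 9 libraries, Cd302 exceeded Clec5a in 6, Clec5a exceeded Clec12a in 6 and Clec12a exceeded Clec4a2 in 7. Mrc1, which encodes the mannose receptor CD206, widely used as a marker of alternatively activated macrophages, was the lowest in all 9 libraries at 15.6 ± 5.10 RPKM. Cd302 changed place most, ranking 7 or 8 of the 9 receptors in the low gel libraries, 5 in the middle ones and 4 or 5 in the high ones.

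**Figure D1:**
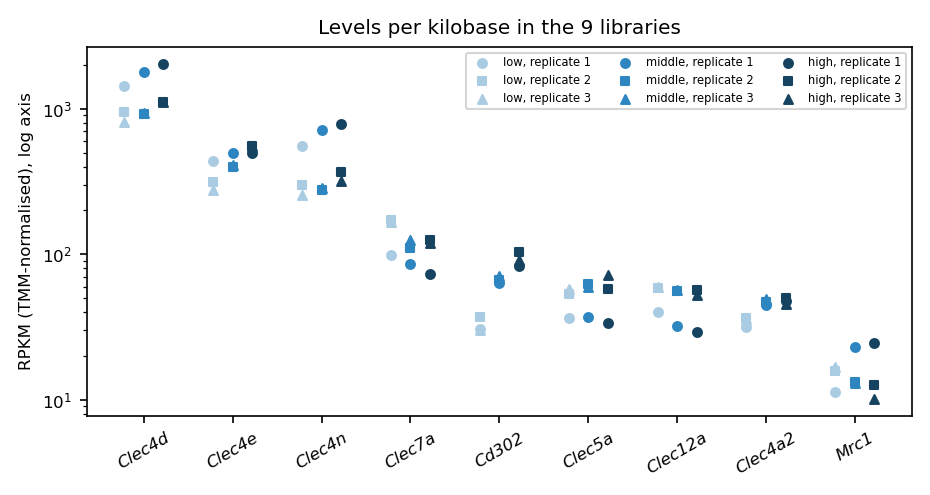
Level of each receptor mRNA in the 9 libraries, in RPKM (TMM-normalised, per deposited exonic length) on a log axis, with shade for gel stiffness and symbol for replicate number. Clec4d lies highest and Mrc1 lowest in every library, and the Clec4n points split by replicate number.

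High gel was compared with the low control gel to ask how expression differs between gels of different stiffness. Any other property that differs between the gels cannot be told apart from stiffness here. In the fit with the replicate number as a block, 6 of the 9 receptor genes were called: Cd302, Clec4e, Clec4a2, Clec4d and Clec4n rose and Clec7a fell. Of all tested genes, 6.72% were called higher and 8.73% lower in that fit. Without the block, 1 of the 9 was called, Cd302 (higher), against 0.091% of all tested genes, and DESeq2 without a block called 3, all higher, against 1.47% of genes higher and 1.29% lower. The blocked count was 3 of 9 without low replicate 3, high replicate 2 or high replicate 3. Over the whole table those fits called 808, 605 and 914 genes, against 1869 with all libraries. The median log2 fold change of the 9 genes with the block was 0.38, against -0.003 over all tested genes.

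Cd302 showed the largest difference of the 9. Its level was 41.2, 50.2 and 40.9 CPM in low replicates 1 to 3, 85.9, 90.4 and 95.2 CPM in middle, and 112, 140 and 124 CPM in high. The 3 gels did not overlap, and every replicate number gave the same order of low, middle and high. In high against low the log2 fold change was 1.50 ± 0.09 (SE, edgeR adjusted p = 1.47e-05) with the block and 1.50 ± 0.14 (adjusted p = 0.0365) without it, a 2.84-fold rise. The call held in 13 of 13 alternatives of the blocked fit. Without the block it was lost when any of 7 single libraries was left out (low 1, 2 or 3, middle 2 or 3, high 2 or 3), with log2 fold changes of 1.43 to 1.62 and adjusted p of 0.0524 to 0.235. Ly75, the neighbouring gene that encodes the related receptor DEC-205, had a log2 fold change of 0.02 ± 0.10 (adjusted p = 0.9 with the block), and was named after its value was seen.

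Among the activating receptors, Clec4e rose most. It was at 1324, 944 and 839 CPM in low replicates 1 to 3, 1489, 1199 and 1230 CPM in middle and 1496, 1675 and 1682 CPM in high. The high libraries were all above the low ones, and replicate 1 was the highest library in low gel and the lowest in high gel. With the block the log2 fold change in high against low was 0.67 ± 0.14 (edgeR adjusted p = 0.00885), and without it 0.64 ± 0.21 (adjusted p = 0.418). The blocked call was lost without low replicate 3 (adjusted p = 0.0586), high replicate 2 (0.0667) or high replicate 3 (0.0532).

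Clec4d and Clec4n, beside it on the chromosome, showed smaller differences on top of a large offset between replicate numbers. Clec4d was at 1918, 1265 and 1087 CPM in low replicates 1 to 3, 2388, 1225 and 1257 CPM in middle and 2723, 1479 and 1475 CPM in high. Clec4n was at 688, 374 and 318 CPM in low, 896, 344 and 358 CPM in middle and 984, 460 and 396 CPM in high. For both genes replicate 1 was the highest library of every gel, and high exceeded low in 3 of 3 numbers although the gels overlapped. The log2 fold change in high against low with the block was 0.39 ± 0.10 for Clec4d (edgeR adjusted p = 0.0221) and 0.38 ± 0.10 for Clec4n (adjusted p = 0.0274), and without it neither was called (0.947 and 0.978). The Clec4d call was lost without low replicate 3 (adjusted p = 0.116), high replicate 2 (0.0807) or high replicate 3 (0.0922). The Clec4n call was lost without low replicate 3 (0.1), middle replicate 3 (0.0537), high replicate 2 (0.136) or high replicate 3 (0.0689).

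Clec7a was the receptor that fell. It was at 213, 372 and 359 CPM in low replicates 1 to 3, 184, 237 and 271 CPM in middle and 158, 269 and 257 CPM in high. Replicate 1 was the lowest library of every gel, and within each number high lay below low, by a log2 difference of -0.43, -0.47 and -0.48. The log2 fold change in high against low was -0.46 ± 0.10 with the block (edgeR adjusted p = 0.00858), a level 0.726 times that of low. It was -0.47 ± 0.29 without the block (adjusted p = 0.842). Without low replicate 2 the blocked value was -0.39 (adjusted p = 0.0533). Dectin-1 and the receptors of the Mincle group moved in opposite directions in the blocked fit.

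Of the inhibitory receptors, Clec4a2 rose and Clec12a was not called. Clec4a2 was at 89.2, 103 and 100 CPM in low replicates 1 to 3, 125, 131 and 138 CPM in middle and 135, 140 and 127 CPM in high. All low libraries were below all others, while middle and high overlapped. Its log2 fold change in high against low was 0.46 ± 0.08 with the block (edgeR adjusted p = 0.00426) and 0.46 ± 0.12 without it (adjusted p = 0.286), and the blocked call held in 13 of 13 alternatives. Clec4a2 has close relatives among its neighbours, and the sources used here do not give how reads shared with them were counted. Of these, Clec4a1 rose (0.52 ± 0.12, adjusted p = 0.0145 with the block) and Clec4a3 had a value of 0.43 ± 0.22 (adjusted p = 0.239). Clec4b1 and Clec4b2, directly beside Clec4a2, had values of 0.25 ± 0.60 (adjusted p = 0.818) and -0.85 ± 0.47 (0.265). Their mean levels were only 0.573 and 2.93 CPM. All these relatives were named after their values were seen.

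Clec12a was at 89.0, 131 and 133 CPM in low replicates 1 to 3, 71.0, 125 and 127 CPM in middle and 65.3, 125 and 117 CPM in high. The spread between replicate 1 and the others exceeded any difference between gels. Its log2 fold change in high against low was -0.23 ± 0.09 with the block (edgeR adjusted p = 0.103). Clec5a was at 140, 205 and 219 CPM in low, 141, 238 and 229 CPM in middle and 129, 221 and 274 CPM in high, and its gels overlapped as well. The value with the block was 0.11 ± 0.10 (adjusted p = 0.497).

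Mrc1 moved in different directions by replicate number. It was at 60.4, 84.2 and 89.2 CPM in low replicates 1 to 3, 122, 70.6 and 69.3 CPM in middle and 131, 67.0 and 53.9 CPM in high. Replicate 1 was the lowest of the low gel libraries and the highest of the middle and the high ones. The pooled value in high against low was -0.02 ± 0.37 on the log2 scale with the block (edgeR adjusted p = 0.978) and 0.11 ± 0.37 without it (adjusted p = 0.994). In replicates 2 and 3 alone it was -0.52 (adjusted p = 0.00184), and without low replicate 1 the blocked value was -0.47 (adjusted p = 0.00884).

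**Figure D2:**
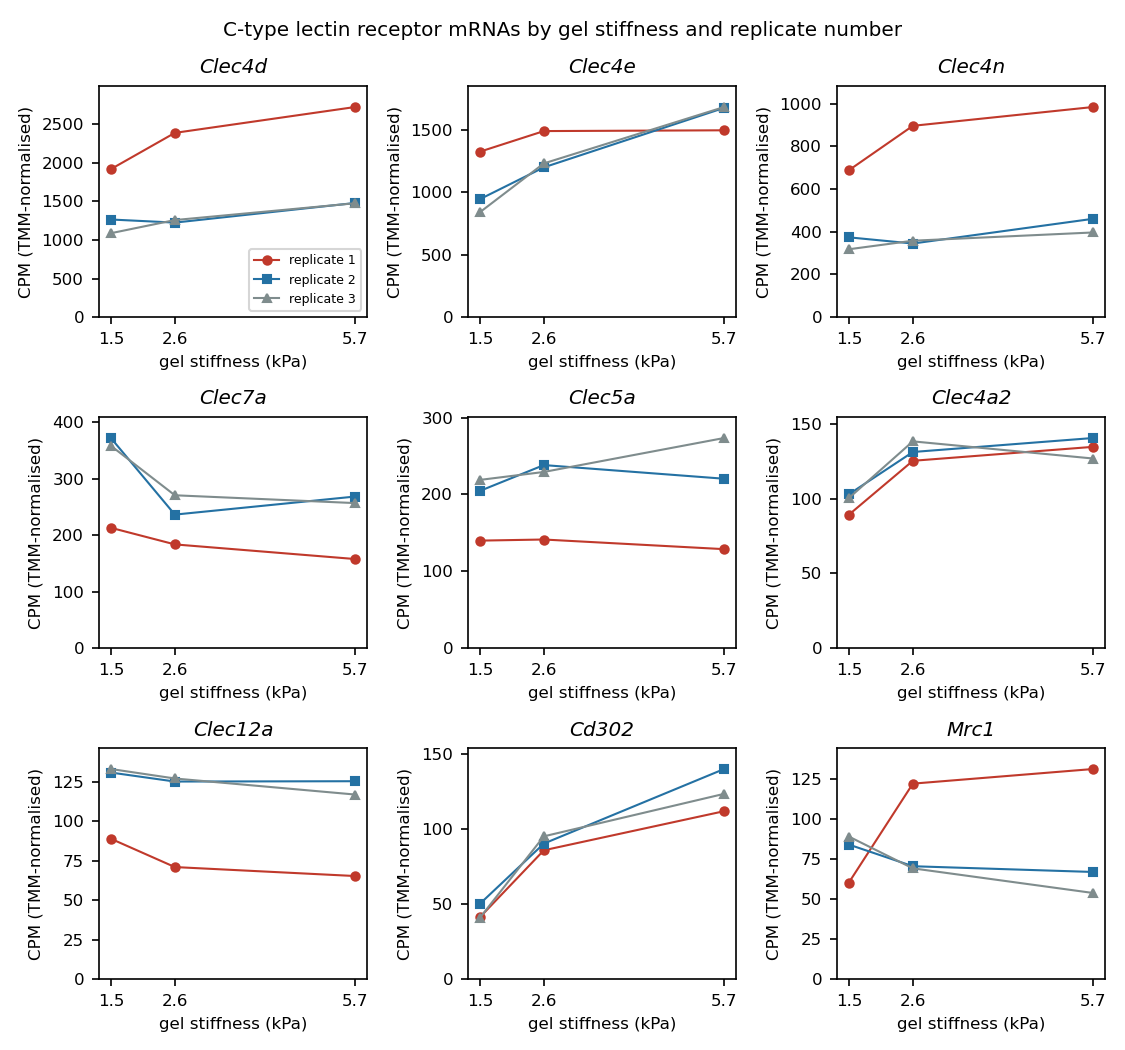
TMM-normalised CPM of each receptor gene against gel stiffness in kPa, with a line for each replicate number and axes from 0. Cd302 climbs alike in the 3 numbers, the replicate 1 line is set apart for Clec4d, Clec4n, Clec7a, Clec5a and Clec12a, and it crosses the others for Clec4e and Mrc1.

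The middle gel was compared with low in the same way. With the block, Cd302 and Clec4a2 rose (2 of 9 genes), against 0.81% of all tested genes called higher and 1.03% called lower. Cd302 had a log2 fold change of 1.04 ± 0.09 (edgeR adjusted p = 7.43e-04) and Clec4a2 one of 0.43 ± 0.08 (adjusted p = 0.0224). Clec7a missed the threshold at -0.42 ± 0.10 (adjusted p = 0.0501), with a range of 8.44e-04 to 0.211 over the alternatives of the blocked fit. The Clec4a2 call was lost when any of 6 single libraries was left out (low 2 or 3, middle 1, 2 or 3, high 2), with adjusted p of 0.0574 to 0.167. Without low replicate 1, 4 of the 9 genes were called, and 661 genes over the whole table, against 222 with all libraries. Without the block 0 of the 9 genes were called by edgeR, as were 0% of all tested genes, while 2 of the 9 had an unadjusted p under 0.05 (2.63% of all) and DESeq2 called 2 (0.397% of all).

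High and middle gels differed less clearly. By edgeR 0 of the 9 genes were called either with the block, where 0.0165% of all tested genes were called higher and 0% lower, or without it, where 0% were called. At an unadjusted p under 0.05 the count was 4 of 9 with the block and 1 of 9 without, and over all tested genes 10.5% and 1.48%. DESeq2 called 1 receptor with the block and 0 without, against 1.01% and 0.0166% of the genes to which it gave an adjusted p. The Cd302 difference was 0.46 ± 0.09 on the log2 scale (adjusted p = 0.102 with the block), with high above middle in 3 of 3 numbers. It was called without low replicate 1 (adjusted p = 0.0115) and without high replicate 1 (0.0271), and Clec4e was called without high replicate 1 (0.51, adjusted p = 0.0302). Clec4e otherwise had a value of 0.33 ± 0.14 (adjusted p = 0.434), Clec4d one of 0.23 ± 0.10 (0.44) and Clec4n one of 0.23 ± 0.10 (0.448). The level of Clec4a2 differed by 0.03 ± 0.08 and that of Clec7a by -0.04 ± 0.10.

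A test for any difference among the 3 gels called 4 of the 9 genes with the block, Cd302 (edgeR adjusted p = 6.01e-05), Clec4a2 (0.00834), Clec7a (0.016) and Clec4e (0.0283), against 9% of all tested genes. Without low replicate 3 it called 1 of the 9, and without low or high replicate 2 it called 2 (all genes not counted). Without the block it called 0 of 9 and 0% of all tested genes, although 3 of the 9 had an unadjusted p under 0.05 (4.56% of all) and DESeq2 called 2 (1.63% of all). Taking levels alone, the high and low libraries did not overlap for Clec4e, Clec4a2 and Cd302 (12.7% of all tested genes). Middle and low did not overlap for Clec4a2 and Cd302 (7.76% of all), and high and middle for Clec4e and Cd302 (5.08% of all).

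**Figure D3:**
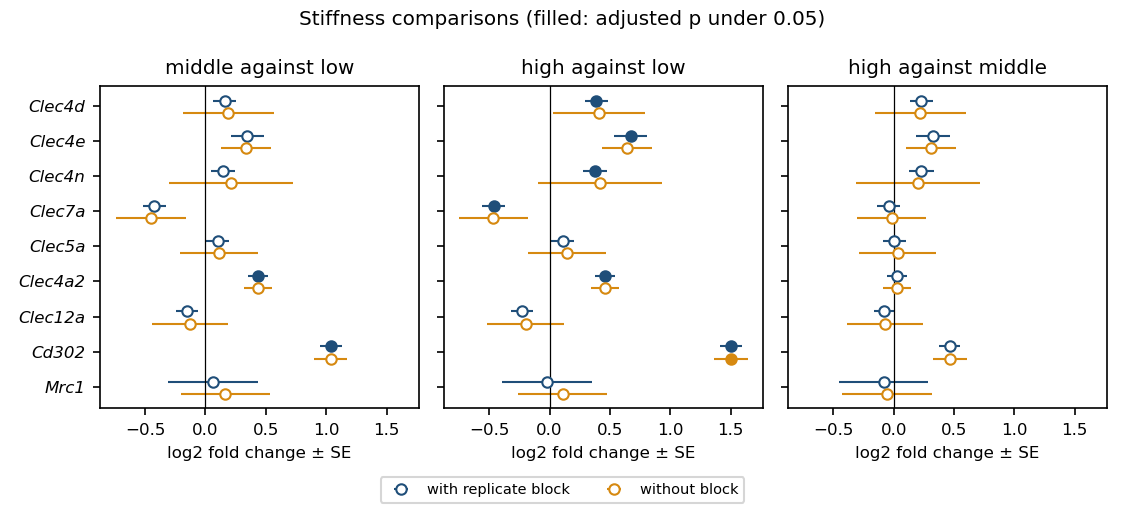
Log2 fold change (points) with its standard error (bars) of each receptor gene in the 3 comparisons of gels, from the fits with and without the replicate number as a block. Filled points passed an adjusted p under 0.05, and Cd302 in high against low is filled in both fits.

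On the log2 scale the difference between replicate 1 and the other numbers was larger than that between high and low gel in 6 of the 9 genes, all but Cd302, Clec4e and Clec4a2. With the gel as a covariate, Clec4n (1.19 ± 0.08 on the log2 scale, edgeR adjusted p = 4.09e-07) and Clec4d (0.85 ± 0.08, 4.39e-06) were higher in replicate 1 than in replicates 2 and 3. Clec12a (-0.76 ± 0.08, 7.23e-06), Clec5a (-0.75 ± 0.09, 1.75e-05) and Clec7a (-0.66 ± 0.08, 3.76e-05) were lower, so that 5 of 9 genes were called. Of all tested genes, 32.9% were called higher and 32.5% lower, so a call in this contrast was common. Mrc1 (0.53 ± 0.32, adjusted p = 0.2), Clec4e (0.24 ± 0.12, 0.0898), Cd302 (-0.16 ± 0.08, 0.0846) and Clec4a2 (-0.09 ± 0.07, 0.272) were not called. Between replicates 3 and 2, edgeR called 0 of the 9 genes and 0% of all, and 0 of the 9 had an unadjusted p under 0.05, against 1.24% of all. The neutrophil marker sum was lower in replicate 1, as given above, with 11 of its 12 markers called lower and 0 higher. The macrophage sum was not lower, but 8 of its 12 markers were called lower and 2 higher, with a median log2 difference of -0.91. Much of that sum is Gpnmb, which was higher in replicate 1 (1.30 ± 0.17). The part of these marker differences in the receptor differences was not tested.

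**Figure D4:**
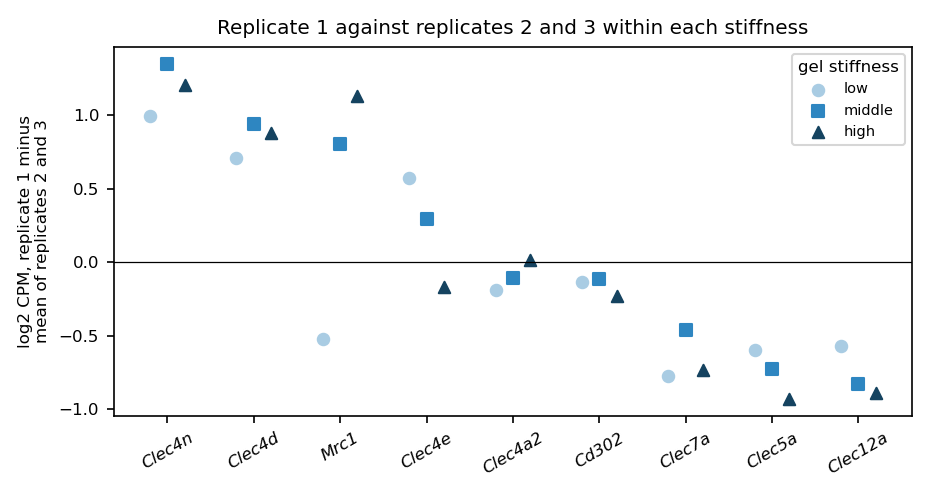
Log2 CPM of replicate 1 minus that of replicates 2 and 3 (their mean) for each receptor gene, with a symbol for each gel stiffness and a line at 0. Clec4n and Clec4d lie above 0 and Clec7a, Clec5a and Clec12a below it in the 3 gels, while Mrc1, Clec4e and, close to 0, Clec4a2 change sign between low and high.

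For Clec4e and Mrc1 the difference between the high and low libraries of replicate 1 was unlike that in the other numbers. The interaction was tested with 1 library per gel in replicate 1, so the spread comes only from replicates 2 and 3, and replicate 1 is assumed to vary like them. Of all tested genes 8.36% passed that test. Clec4e differed between high and low by 0.18, 0.83 and 1.00 log2 units in replicates 1 to 3, and the interaction was -0.74 ± 0.13 (edgeR adjusted p = 0.00582). Mrc1 differed by 1.12, -0.33 and -0.73, and the interaction was 1.64 ± 0.17 (adjusted p = 1.83e-04). Cd302 differed by 1.44, 1.48 and 1.60 and its interaction was -0.09 ± 0.18 (adjusted p = 0.812).

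Patterns over the 9 libraries, compared as the root mean square difference of centred log2 CPM, placed some receptors close together. The closest pair was Clec4d and Clec4n (0.169), followed by Clec5a and Clec12a (0.177) and Clec7a and Clec12a (0.177), and the most distant was Clec4n and Clec12a (0.962). Among tested genes that averaged 5 CPM or more, the nearest to Cd302 were Radx (0.169) and Mt1, a metallothionein (0.183). The nearest to Clec4e were Cry1, a circadian repressor (0.0707), and Nfkb2, an NF-kB subunit (0.0814). Clec4d was nearest to Nol7 (0.0497) and Slc3a2 (0.0555), Clec4n to Prdx6 (0.0519) and Sfn (0.0795), and Clec7a to Tlr13 (0.0954) and 4931406C07Rik (0.111). Clec4a2 was nearest to Dad1 (0.0787) and Cebpb (0.0835), Clec5a to Map4 (0.0498) and Picalm (0.0566), Clec12a to Stim1 (0.0463) and Cpne3 (0.0510), and Mrc1 to Slc48a1 (0.149) and Crtap (0.177). All these values share the same libraries and their offset between replicate numbers.

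The genes through which these receptors signal were examined as lists in high against low, where 6.72% of all tested genes were called higher and 8.73% lower with the block. With the block, 5 of 17 adaptors, kinases and complex subunits rose and 0 fell, with a median log2 fold change of 0.23. DESeq2 called 6 higher and 0 lower, against 6.94% and 9.09% of all genes. At an unadjusted p under 0.05 the counts were 9 higher and 0 lower, against 13.8% and 17% of all. Fcer1g, the adaptor of Mincle, MCL and Dectin-2, was at 656, 878 and 837 CPM in low replicates 1 to 3 and at 944, 1253 and 1274 CPM in high, and rose by 0.55 ± 0.09 (edgeR adjusted p = 0.00269). The 2 groups did not overlap. Syk rose by 0.50 ± 0.10 (0.00685), and the Src family kinase Fgr by 0.43 ± 0.09 (0.0108). Bcl10, named after its value was seen, rose by 0.38 ± 0.09 (0.0151). Card9 had a value of 0.13 ± 0.09 (0.366) and Tyrobp, the adaptor of Clec5a, one of 0.09 ± 0.10 (0.577), both also named after their values were seen.

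Of 8 genes of inhibitory signalling, Ptpn6 rose (0.44 ± 0.09, edgeR adjusted p = 0.00828 with the block) and Cblb, a ubiquitin ligase that restrains Syk-coupled receptors, fell (-0.62 ± 0.12, 0.00748), with a median of 0.12 over the list. Of 25 other C-type lectin and related receptors 18 were tested, of which 2 rose and 4 fell (6.72% and 8.73% of all tested genes), with a median of -0.53. Among those that fell were Cd93 (-0.87 ± 0.10, 4.47e-04), Clec2i (-0.90 ± 0.14, 0.00217) and Clec2d (-0.49 ± 0.09, 0.00372). Those that rose were Clec4a1, given above, and Olr1, the scavenger receptor LOX-1 beside Clec7a (1.29 ± 0.26, 0.0195), and both were named after their values were seen. Of 16 output genes that can be reached through CARD9 or NFAT, 9 rose and 0 fell, against the same shares of all genes, with a median of 0.90. DESeq2 called 10 higher and 0 lower, and at an unadjusted p under 0.05 the counts were also 10 and 0. Among them were the chemokine genes Cxcl1 (2.21 ± 0.12, 9.8e-06) and Cxcl2 (1.14 ± 0.14, 5.54e-04), Il10 (1.60 ± 0.10, 2.31e-05) and Nfkb1 (0.80 ± 0.09, 3.86e-04). These output genes also respond to many other receptors. The 9 receptor genes and all the lists were chosen with earlier results of these data known. Their counts are therefore not independent support for a change in this pathway.

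Without the block edgeR called 0 genes of the 4 lists in high against low, and 0.091% of all tested genes. At an unadjusted p under 0.05 that fit had 2 signalling genes higher, 1 inhibitory gene lower, 1 other receptor in each direction and 8 output genes higher, against 3.41% of all tested genes higher and 4.31% lower. DESeq2 called 0 signalling, 0 inhibitory, 1 other receptor and 6 output genes, all higher, against 1.47% of genes higher. In middle against low with the block, 3 of 16 output genes rose (Cxcl1, 1.45 ± 0.12, Il10, 0.94 ± 0.10, and Nfkb1, 0.47 ± 0.09) and 0 fell. Of 18 other receptors tested, 3 fell, among them Cd93 (-0.69 ± 0.10) and Clec2i (-0.69 ± 0.14), and 0 rose. That fit called 0.81% of all tested genes higher and 1.03% lower.

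**Figure D5:**
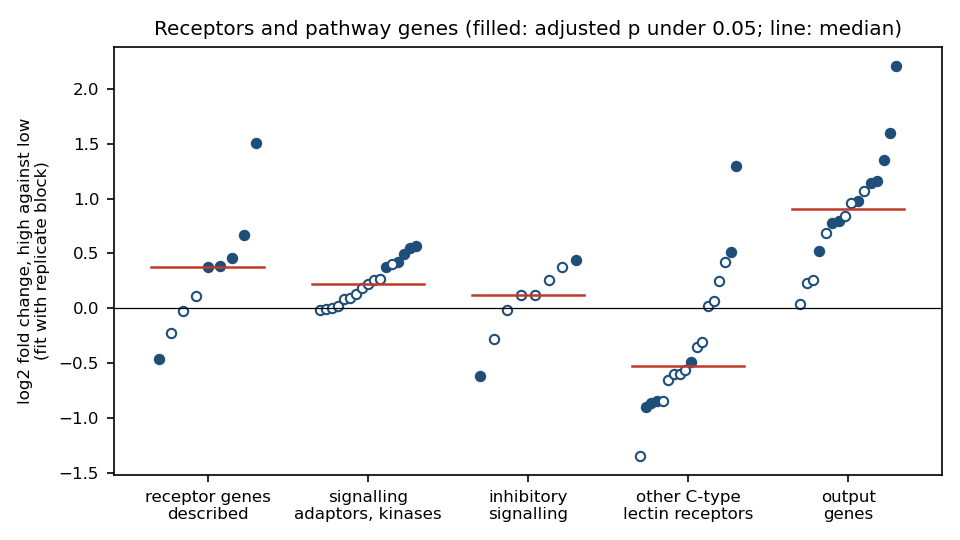
Log2 fold change in high against low from the fit with the replicate block, for the 9 receptor genes and the tested genes of the 4 lists, with filled points for an adjusted p under 0.05 and a line at each median. The medians are 0.38, 0.23, 0.12, -0.53 and 0.90 from left to right.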

How the data were processed

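The files hold, for each of 9 libraries, raw counts per gene with no normalization, the FPKM computed by the authors, and, as deposited in another unit, each gene's exonic length in bases. Recomputed FPKM differed from the deposited FPKM by at most 0.005, so FPKM was not used further. The submitters' processing notes name HTSeq 0.6.1, HISAT2 2.0.1, cutadapt 1.9.1 and DESeq2, with genome build GRCm39. The sources used here do not give parameters or the strand setting. Per the labels' protocols, stranded poly(A) libraries were sequenced as paired ends.

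Deposited counts were filtered with filterByExpr (12094 genes), scaled by TMM and fitted over all 9 libraries with edgeR 4.0.16 (robust quasi-likelihood, R 4.3.3), two-sided. Benjamini-Hochberg adjustment ran over all tested genes. Standard errors were derived from the log2 fold change and its F statistic. CPM with a prior count of 2 gave the log values for the pattern comparison and the correlations between libraries. Log2 differences between single libraries used no prior count. The fit without a block was the stated design, and the replicate block, DESeq2 1.42.0, its size factors, no filter, each library left out and replicates 2 and 3 alone were alternatives. The fits were run on simulated data in which each replicate number shifted a gene alike in all gels, as the block assumes. That leaves out the interaction and the likeness of numbers 2 and 3 in these data. Plots used Python 3.11.15 and matplotlib 3.10.9.

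After removal of group means, libraries of the same number correlated at 0.595 to 0.856. Numbers 2 and 3 also correlated with each other across gels (0.552 to 0.698), and number 1 with either at -0.777 to -0.650. Within a gel the deviations from the mean cancel out, so the negative values follow from the positive ones and are not separate evidence. It is the likeness of numbers 2 and 3 that sets number 1 apart. The correlations cannot show whether numbers 2 and 3 are each paired across gels, since the 2 positive ranges overlap. The biological coefficient of variation was 0.337 without and 0.115 with the block.

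The 9 genes and the lists were chosen with earlier results of these data known. Genes named are the 9, up to 4 called genes per list with the smallest blocked adjusted p in high against low, and the 2 genes most alike each receptor. Of the genes so chosen, 2 are not reported here. Genes outside this rule are marked in the text as named after their values were seen. Sequences are from RefSeq, GRCm38.p6.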

Additional observations from a re-analysis of the deposited data

Results flagged for a closer look

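The difference of Clec4e between the high and low gel libraries was smaller in replicate 1 than in replicates 2 and 3, by -0.74 on the log2 scale (edgeR interaction, adjusted p = 0.00582), and high exceeded low in 3 of 3 numbers. That of Mrc1 was larger in replicate 1 by 1.64 (adjusted p = 1.83e-04), with high above low in replicate 1 and below it in replicates 2 and 3. Replicate 1 has 1 library in each gel, so these p-values rest on the spread of replicates 2 and 3 alone and assume that replicate 1 varies alike. The cause was not tested. The count of receptors that passed was 2 under the other scaling and 2 without the filter on low counts.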

How the results depend on the processing

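Most calls depended on whether the replicate number was a block. Without the block, high against low called 11 genes over the whole table, 1869 with the replicate block, 333 by DESeq2 and 3207 in replicates 2 and 3 alone. Leaving out single libraries gave 0 to 41. Middle against low called 0 genes, then 222 with the block, 48 by DESeq2 and 784 in replicates 2 and 3. High against middle called 0, 2, 2 and 840. For the 9 receptors the same 4 fits gave 1, 6, 3 and 7 in high against low (0 to 1 with a library left out), 0, 2, 2 and 4 in middle against low, and 0, 4, 2 and 7 among the 3 gels (0 to 1). High against middle called 2 receptors in replicates 2 and 3 alone. The block changed no other receptor call. The cause was not tested. The blocked fit, whose alternatives were chosen after seeing the data, was itself varied. Middle against low moved from 222 genes to 340 with no filter, 462 by DESeq2, 825 in replicates 2 and 3 and 27 to 661 with a library left out, and from 2 receptors to 4 in replicates 2 and 3 and 1 to 4. High against low moved from 1869 genes to 3183 in replicates 2 and 3 and 605 to 2469 with a library left out, and from 6 receptors to 3 to 7. High against middle moved from 2 genes to 1 with DESeq2 size factors, 40 with no filter, 108 by DESeq2, 900 in replicates 2 and 3 and 0 to 301, and from 0 receptors to 1 with no filter, 1 by DESeq2, 2 in replicates 2 and 3 and 0 to 2. Among the 3 gels the count moved from 4 receptors to 7 in replicates 2 and 3 and 1 to 6 with a library left out. Calls over all genes were not counted for these alternatives. Mrc1 in high against low turned from 0.11 to -0.52 in replicates 2 and 3 alone. Replicate 1 against the others called 5 receptors (5 to 6 with a library left out), and the interaction called 2 under both of its alternatives. Each receptor had at least 547 counts in every library.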
